A study of Mus musculus with 7 samples.

Results

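The 6 mature arms of the miR-199 and miR-214 microRNAs (miRNAs) were followed in mouse colorectum, with each arm taken from the table of miRNA counts by its name. They are mmu-miR-199a-5p, mmu-miR-199a-3p, mmu-miR-199b-5p, mmu-miR-199b-3p, mmu-miR-214-3p and mmu-miR-214-5p, 6 of the 1915 entries of the table, and the rule uses their names and no measured value, although they were taken up with earlier results of these data known. The mice were wild-type C57BL/6 females, for which the protocol gives an age of 7 weeks at injection. The 3 mice of the CRC group (M4, M5 and M6) had received 10 mg per kg of azoxymethane (AOM), which causes colon tumours in rodents, into the peritoneum. From 5 days later their water held 2.5% dextran sodium sulfate (DSS), an agent that damages the colonic epithelium, for 7 days. The protocol then gives 14 days of plain water and a repetition of the cycle, and names a stage T1 at day 17, without saying which mice were taken when. The 3 healthy mice (M1, M2 and M3) had been injected with 0.9% NaCl instead. No group had AOM or DSS alone, so their effects and those of tumours cannot be told apart. Mouse M1 has 2 labelled libraries and 1 column of counts, and was used as 1 profile.

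MicroRNAs are cut from hairpin precursors, whose left and right arms give the 5p and 3p forms, and they repress messenger RNAs that pair with their seed, bases 2 to 8 from the 5′ end. The miR-199 and miR-214 genes are known from mesenchymal cells such as fibroblasts and smooth muscle. Mir199a-2 and Mir214 are cut from the noncoding transcript Dnm3os, which the transcription factor TWIST1 is known to induce, and miR-199a and miR-214 are known as regulators of fibroblast activation and of fibrosis. All tissue was whole colorectum and messenger RNA was not analysed here, so the cells that carried these miRNAs cannot be read from the counts. In such bulk tissue, fewer cells of a type and less of a miRNA per cell cannot be told apart.

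The mature sequences show which arms can be separated by sequencing. They are written as deposited, with t for u, and capitals mark the seed.
miR-199a-5p: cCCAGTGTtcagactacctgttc
miR-199b-5p: cCCAGTGTttagactacctgttc
miR-199a-3p: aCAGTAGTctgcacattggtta
miR-199b-3p: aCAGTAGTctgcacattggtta
miR-214-3p: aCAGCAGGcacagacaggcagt
miR-214-5p: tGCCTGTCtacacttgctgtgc
The 5p arms of miR-199a and miR-199b share a seed and differ at 1 base, C10T, counted from the 5′ end of miR-199a-5p. Their 3p arms are identical. No other entry of the table has the seed of miR-199-5p, miR-199-3p or miR-214-5p. The seed of miR-214-3p is shared by 1 entry, miR-761, which had 6 to 17 counts per mouse.

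The 6 arms come from 4 hairpins at 3 places in the genome, shown because the 3p arm is common to 3 of them. Sequences are from RefSeq on GRCm38.p6, 5′ to 3′ on the hairpin's own strand, with the mature arms in capitals.
Mir199a-1: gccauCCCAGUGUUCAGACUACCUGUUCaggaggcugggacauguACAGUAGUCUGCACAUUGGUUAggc
Mir199a-2: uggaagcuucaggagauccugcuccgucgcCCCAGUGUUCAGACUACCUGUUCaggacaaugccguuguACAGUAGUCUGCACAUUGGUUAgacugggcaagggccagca
Mir199b: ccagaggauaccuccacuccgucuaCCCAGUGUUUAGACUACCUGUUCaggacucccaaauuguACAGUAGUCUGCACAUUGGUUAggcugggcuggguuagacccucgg
Mir214: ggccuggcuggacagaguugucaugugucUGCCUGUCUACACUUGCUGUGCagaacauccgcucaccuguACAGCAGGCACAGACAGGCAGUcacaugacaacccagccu

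In GENCODE M21 on the same build, Mir199a-2 (chr1:162217814-162217923, plus strand) and Mir214 (chr1:162223368-162223477, plus strand) both overlap exons of Dnm3os and lie 5444 bases apart. On the opposite strand both fall in an intron of Dnm3. Mir199a-1 (chr9:21496495-21496564, minus strand) lies opposite an intron of Dnm2, and Mir199b (chr2:32318460-32318569, plus strand) opposite an intron of Dnm1. Dnm1, Dnm2 and Dnm3 encode dynamins, which pinch off membrane vesicles. Reads of miR-199a-5p can come from either miR-199a gene, and only the miR-199b-5p count belongs to a single miR-199 gene.

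The identical 3p arms were divided between their entries in the same proportion in every mouse. The entry miR-199a-3p, which names 2 hairpins, held 66.7%, 66.5% and 66.8% of the joint 3p reads in M1 to M3 and 66.6%, 66.8% and 66.5% in M4 to M6, against 66.667% for 2 of 3 hairpins. All 6 of the 95% Wilson intervals (65.3% to 67.6% in M6, the shallowest) contain that value; they cover counting error only. The miR-199a-3p and miR-199b-3p entries are therefore 1 measurement of 1 sequence, called miR-199-3p here where they are summed. They hold no information on which gene the 3p arm came from.

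**Figure D1:**
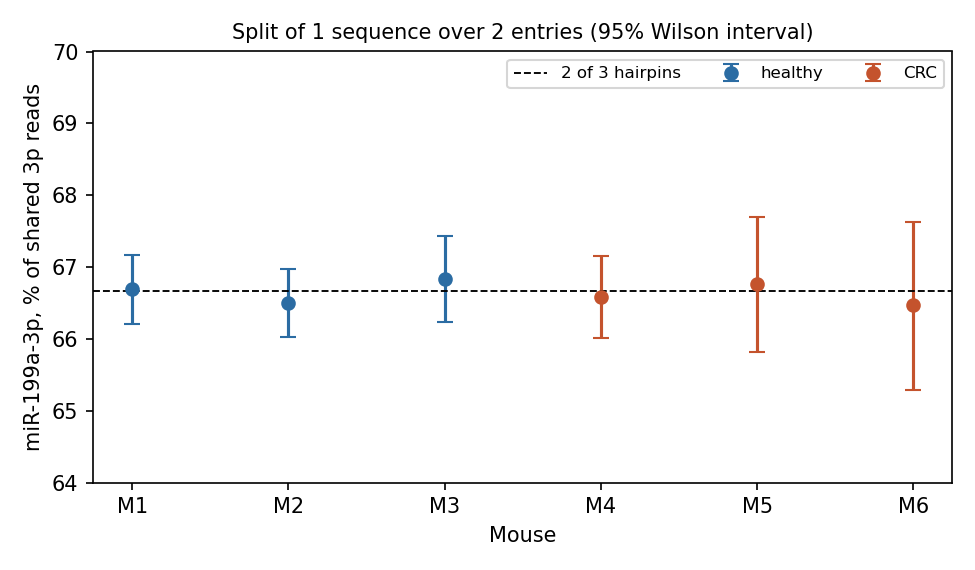
Share of the joint miR-199-3p reads (%, vertical axis, shown from 64 to 70) that the table gives to the entry miR-199a-3p in each mouse, with 95% Wilson intervals; the dashed line marks 2 of 3 hairpins. The intervals of all 6 mice contain the line.

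Depth was 3206127 (M6) to 15280434 (M2) miRNA reads per mouse, and 3 counts, the limit that a count of 0 allows, equal at most 0.936 CPM (reads of a miRNA relative to all miRNA reads, scaled to a fixed total). All members passed the filter on low counts and the least abundant had at least 247 counts in every mouse. Levels are given in CPM on library sizes scaled by TMM, a method that aligns the bulk of the miRNAs between profiles. Under scaling by total counts alone, the median log2 fold change of all tested miRNAs moved from -0.03 to 0.62, so each direction below is relative to the TMM scale unless another scale is named. The profiles lay in close pairs: over 878 miRNAs the Pearson r of log2 CPM was 0.992 between M1 and M2, 0.976 between M5 and M6 and 0.971 between the healthy M3 and the CRC mouse M4. The nearest profile of M3 was thus one of the other group.

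None of the 6 arms passed edgeR's test between CRC and healthy colorectum at an adjusted p of 0.05. Over all tested miRNAs 2.28% passed, 20 of 878, and all 20 were higher in CRC, so no miRNA was called lower; 85 were lower at an unadjusted p under 0.05. All 6 log2 fold changes were negative, with a median of -0.60 against -0.03 over all tested miRNAs. For 1 arm, miR-199b-5p, the unadjusted p was under 0.05, as it was for 23.2% of all tested miRNAs in either direction. Of all tested miRNAs, 9.68% were lower in CRC at that threshold. No arm had every CRC mouse below every healthy mouse, a pattern found in 12.4% of all tested miRNAs.

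miR-214-3p, cut from Dnm3os, was the most abundant member and ranked 45th among all entries by its mean. Healthy values were 4227, 4435 and 2821 CPM (M1 to M3) and CRC values 5406, 2354 and 2055 CPM (M4 to M6). The highest and the lowest values were both in CRC mice, and the groups overlapped. The mean was 3828 ± 878 CPM for the healthy and 3272 ± 1854 CPM for the CRC group (SD, n = 3 for both). On the log2 scale edgeR put the difference at -0.23 (SE 0.45, adjusted p = 0.788). The 95% interval of this difference ran from -1.24 to 0.79. Under total-count scaling it was 0.43, and without M2 or M6 it was 0.043 or 0.017, so its direction depended on the scaling and on single mice.

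miR-214-5p, the opposite arm of the same hairpin, was the rarest member and ranked 213th. Healthy values were 115.98, 138.3 and 105.8 CPM (M1 to M3) and CRC values 114.7, 75.6 and 52.4 CPM (M4 to M6). M4 lay within the healthy range, and M5 and M6 below it. Its log2 fold change was -0.57 (edgeR, SE 0.43, adjusted p = 0.449), and 0.11 under total-count scaling. For each read of the 5p arm there were 36.4, 32.1 and 26.7 of the 3p arm in M1 to M3, and 47.1, 31.2 and 39.2 in M4 to M6. miR-214-3p was thus the dominant arm in every mouse, and the highest ratio was again in M4. In the test of arm balance over 236 hairpins, the CRC minus healthy difference of log2(5p/3p) was -0.29 (SE 0.43, adjusted p = 0.738, limma).

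miR-199a-5p, a product of Mir199a-1 and Mir199a-2 that is known to target caveolin-1 in lung fibroblasts, was at 2270, 2848 and 1484 CPM in the healthy mice (M1 to M3). In the CRC mice (M4 to M6) it was at 2026, 1262 and 1103 CPM. Only M5 and M6 lay below all healthy mice. The log2 fold change was -0.59 (edgeR, SE 0.42, 95% interval -1.52 to 0.35, adjusted p = 0.421), and 0.16 under total-count scaling. Relative to all miRNA reads, without TMM, this arm varied least of the 6: it was at 1635, 1657 and 1639 CPM in M1 to M3 and at 1921, 1958 and 1620 CPM in M4 to M6, a highest value 1.21 times the lowest.

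miR-199a-3p, known to target mTOR and MET, was at 2730, 2858 and 1724 CPM in M1 to M3 and at 2762, 1155 and 874 CPM in M4 to M6. The values of M4 and of the healthy M1 and M2 were nearly the same, and M5 and M6 were the lowest. Its log2 fold change was -0.61 (edgeR, SE 0.49, adjusted p = 0.487). The entry miR-199b-3p, the same sequence, gave -0.61 (edgeR, SE 0.50, adjusted p = 0.499), from 855 to 1440 CPM among the healthy and 441 to 1386 CPM among the CRC mice. Under total-count scaling these values were 0.043 and 0.047.

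miR-199b-5p, the arm that marks the Mir199b gene on chromosome 2, varied most. M1 and M2 had 2702 and 3942 CPM but the healthy M3 only 535 CPM, and M4, M5 and M6 had 461, 736 and 560 CPM. M3 thus lay inside the CRC range, and the contrast was between M1 and M2 on the one side and the other 4 mice on the other. The mean was 2393 ± 1725 CPM for the healthy and 585.8 ± 139.1 CPM for the CRC group (SD, n = 3 for both). edgeR gave a log2 difference of -2.03 (SE 0.64, 95% interval -3.47 to -0.59, unadjusted p = 0.0108, adjusted p = 0.106). Under total-count scaling its value was -1.01, the only one of the 6 to stay negative on that scale. DESeq2 called it lower (adjusted p = 0.0247), and so did edgeR without a filter (adjusted p = 0.0314) or without M3 (log2 fold change -2.60, adjusted p = 0.0285). Of all miRNAs tested in each fit, DESeq2 called 12.6%, edgeR without a filter 3.34% and edgeR without M3 5.9%. limma-voom, with 0 calls over all miRNAs, did not call miR-199b-5p (adjusted p = 0.200). Over 18 alternatives its adjusted p ran from 1.035e-07 to 0.752.

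**Figure D2:**
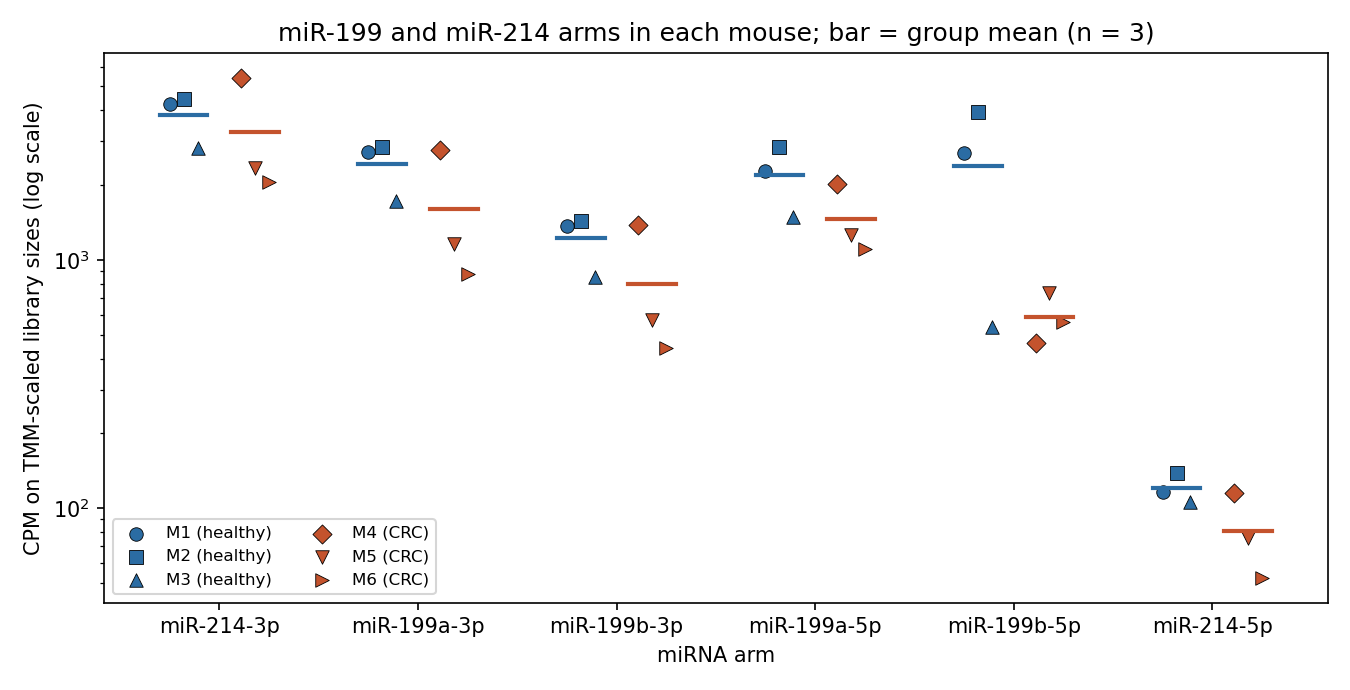
CPM on TMM-scaled library sizes (log axis) of each arm in each mouse; blue symbols are the healthy mice M1 to M3, orange symbols the CRC mice M4 to M6, and bars the group means (n = 3). The groups overlap for every arm; for miR-199b-5p the healthy M3, at 535 CPM, sits among the CRC mice.

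The spread over the 6 mice was widest for miR-199b-5p. The SD of its log2 CPM was 1.34, against 0.73 for miR-199a-3p, 0.56 for miR-214-3p, 0.53 for miR-199a-5p and 0.51 for miR-214-5p. The median over the 87 miRNAs with a mean of at least 1000 CPM was 0.60, and 89.7% of these had an SD no larger than that of miR-199b-5p. Over the 6 mice miR-199-3p and miR-214-3p went together (Pearson r of log2 CPM 0.96 for miR-199a-3p), and so did miR-199a-5p and miR-214-3p (0.89). miR-199b-5p had an r of 0.41 with miR-214-3p and 0.76 with miR-199a-5p. These are descriptions over 6 mice that share their libraries and scaling factors.

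Together the 6 arms took 0.966%, 0.911% and 0.831% of the miRNA reads in M1 to M3, against 1.153%, 0.955% and 0.747% in M4 to M6. The highest and the lowest share were both in CRC mice. The mean shares were 0.903 ± 0.068% in healthy and 0.952 ± 0.203% in CRC mice (SD, n = 3 each; exact permutation test, two-sided p = 0.8, where 3 mice against 3 cannot go below 0.1). On the TMM scale they summed to 13409, 15661 and 7525 CPM in M1, M2 and M3 and 12155, 6157 and 5086 CPM in M4, M5 and M6, so the difference changed sign (exact permutation test, two-sided p = 0.2). Adjusted over these 2 tests, p was 0.8 and 0.4. Within the sum, miR-199b-5p made up 20.1% in M1 and 25.2% in M2, but 7.11% in M3, and 3.795%, 11.95% and 11.01% in M4 to M6.

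**Figure D3:**
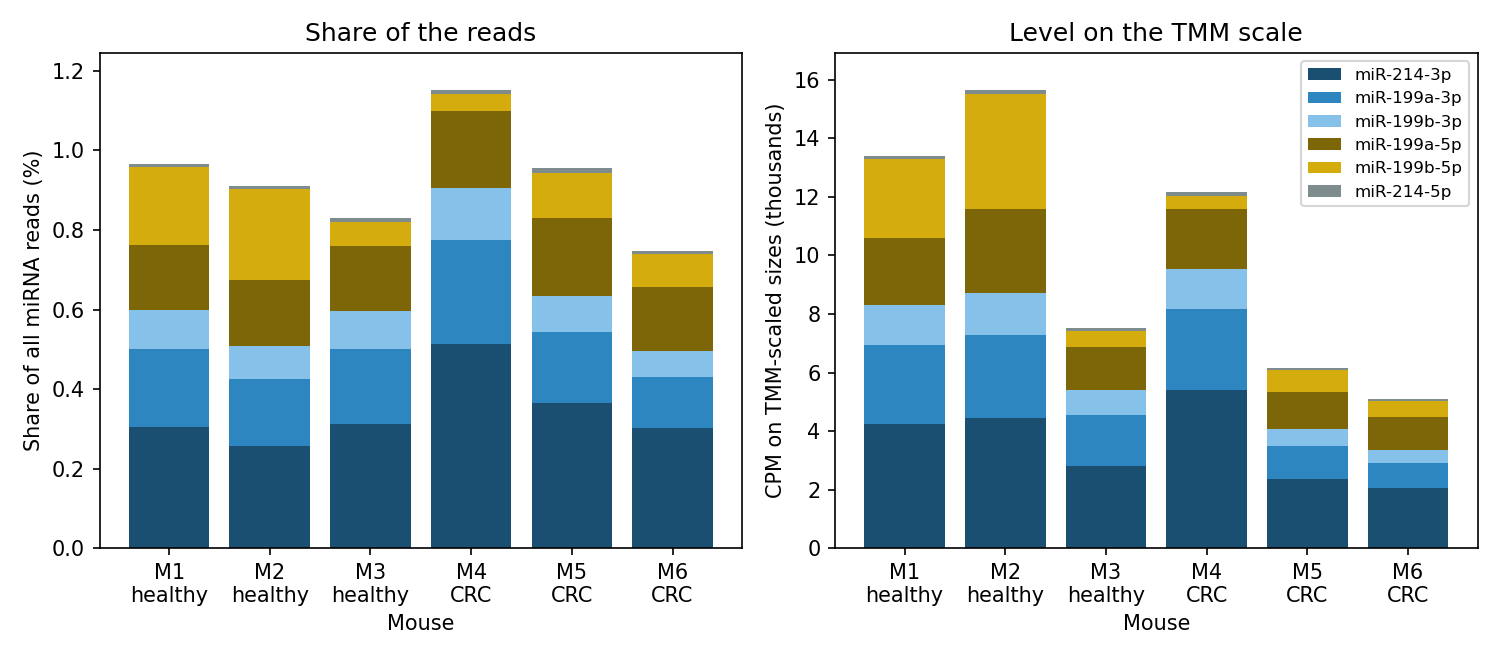
The 6 arms stacked for each mouse, as a share of all miRNA reads (%, left) and as CPM on TMM-scaled library sizes in units of 1000 (right). The summed share stays between 0.747% and 1.153%, while on the TMM scale M1, M2 and M4 stand above M3, M5 and M6; the miR-199b-5p segment is widest in M1 and M2.

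Ratios between arms of the same profile do not depend on the scaling between profiles. A total of 5 were compared by exact permutation tests over mice. The balance of miR-199a-5p against miR-199b-5p, whose exact sequences separate the miR-199a genes from the miR-199b gene, was 0.840 in M1 and 0.723 in M2. M3 had 2.78, and the values of M4 to M6 were 4.39, 1.71 and 1.97. Reads of miR-199b-5p thus exceeded those of miR-199a-5p in M1 and M2 only, and M3 lay between the CRC mice. The mean log2 ratio was 0.25 ± 1.06 in healthy and 1.30 ± 0.73 in CRC mice (SD, n = 3 each; exact permutation p = 0.3, two-sided; 0.5 adjusted over the 5 ratios). The arm balance of miR-199b differed by -0.88 (SE 0.74, adjusted p = 0.617, limma) and that of miR-199a by 0.17 (SE 0.44, adjusted p = 0.828, limma), but both use a 3p arm whose gene is unknown.

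miR-214-3p and miR-199a-5p, both cut in part or whole from Dnm3os, kept a more even balance, with a range of 0.78 on the log2 scale against 2.60 for the ratio above. miR-214-3p had 1.86 reads for each read of miR-199a-5p in M1, 1.56 in M2 and 1.90 in M3, against 2.67 in M4, 1.87 in M5 and 1.86 in M6. M1, M5 and M6 thus had nearly the same ratio, although their depth and their TMM levels were far apart. M4 alone was high. The mean log2 ratios were 0.82 ± 0.16 and 1.07 ± 0.30 (SD, n = 3 each; exact permutation p = 0.4, two-sided; 0.5 adjusted).

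Against the summed miR-199-3p, miR-214-3p had 1.03 reads per read in M1, 1.03 in M2 and 1.09 in M3, and 1.30 in M4, 1.36 in M5 and 1.56 in M6. This was the ratio in which the groups did not overlap: each CRC mouse, M4 included, lay above each healthy mouse, M3 included. The mean log2 ratio was 0.07 ± 0.05 in healthy and 0.49 ± 0.14 in CRC mice (SD, n = 3 each), a difference of 0.42 (exact permutation p = 0.1, two-sided, the smallest that 3 mice against 3 allow; 0.5 adjusted over the 5 ratios). The difference therefore did not pass the test, and this ratio was added after the counts had been seen. The difference was 0.34 to 0.47 when each mouse was left out in turn. The arms differ in GC content, with 59.1% for miR-214-3p and 40.9% for miR-199-3p. With a GC trend removed from the profiles, the log2 fold change was -0.64 for miR-214-3p and -0.52 for miR-199a-3p. On that scale miR-214-3p was thus no longer the less lowered of these arms. The part of GC content in this ratio was not tested. The 2 remaining ratios, miR-199-3p against the summed miR-199-5p arms and miR-214-3p against miR-214-5p, had differences of 0.26 (p = 0.6) and 0.29 (p = 0.3) in the same exact permutation tests.

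**Figure D4:**
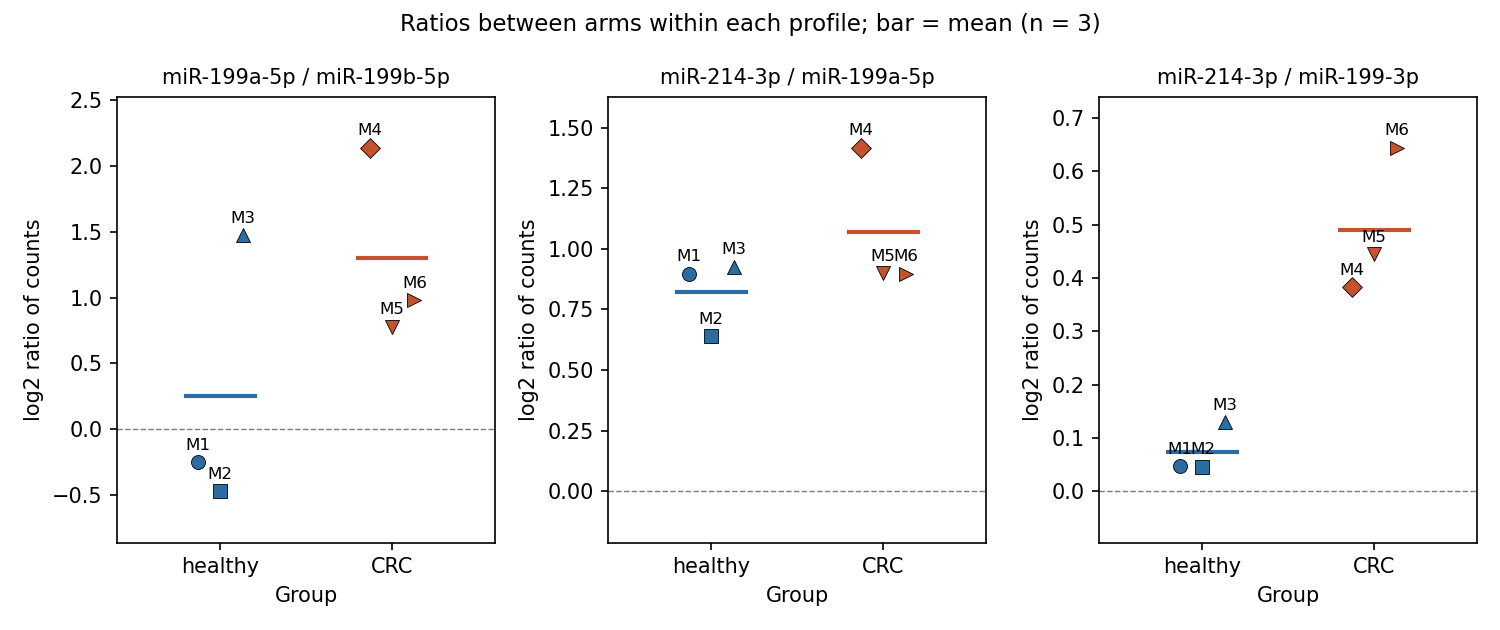
log2 ratio of counts between arms in each mouse (points, labelled by mouse; bars are means, n = 3) for miR-199a-5p over miR-199b-5p, miR-214-3p over miR-199a-5p and miR-214-3p over the summed miR-199-3p. In the third panel all CRC mice lie above all healthy mice, with exact permutation p = 0.1; in the first M3 lies with the CRC mice.

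How the group difference of each arm moved with M3 and M4 was measured in further fits. Both mice were picked for the likeness of their profiles, known from these data, so the p-values without them support nothing by themselves. Without both, a comparison of 2 against 2, edgeR called all 6 arms lower, of which 2 are the same sequence. The log2 fold changes were -1.26 for miR-214-3p (edgeR, adjusted p = 0.000154), -1.28 for miR-214-5p and -1.40 for miR-199a-5p. They were -1.75 for miR-199a-3p, -1.76 for miR-199b-3p and -2.65 for miR-199b-5p. That fit called 53.2% of its 1082 tested miRNAs. With the neighbouring profiles as blocks, where M4 minus M3 alone carries the difference, the values were 0.94 for miR-214-3p, 0.68 for miR-199a-3p, 0.70 for miR-199b-3p, 0.45 for miR-199a-5p, 0.12 for miR-214-5p and -0.21 for miR-199b-5p. No arm was called there. The direction of all arms but miR-199b-5p thus depended on which mice were compared.

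**Figure D5:**
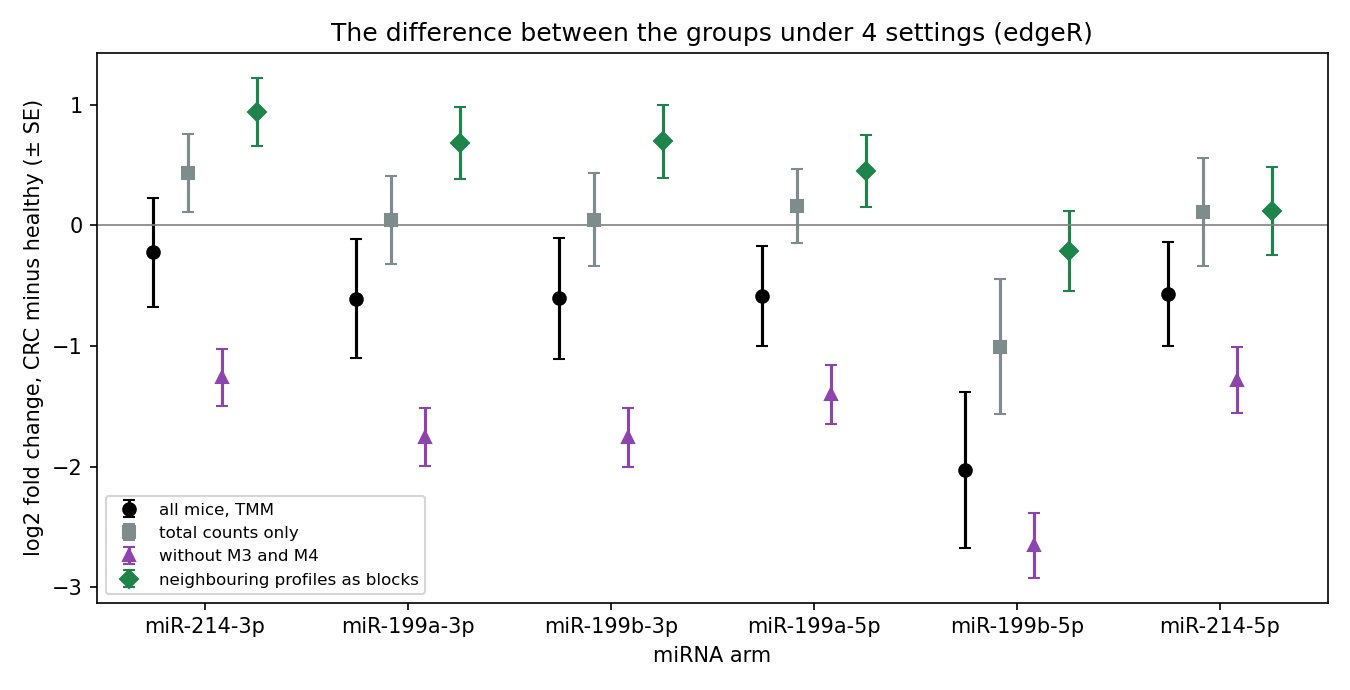
CRC minus healthy difference in log2 level (± SE, edgeR) of each arm with all mice on the TMM scale, with total counts only, without M3 and M4, and with neighbouring profiles as blocks. Only miR-199b-5p is below 0 under all 4 settings, from -2.65 to -0.21.

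Lists of miRNAs known from cell types of the colon wall were read in the same profiles. A list of 10 smooth muscle miRNAs took 41.6%, 48.0% and 21.1% of the reads in M1 to M3 and 20.8%, 7.09% and 6.56% in M4 to M6. The share of M3 and M4 was nearly the same. In that list 0 of 10 passed the test, against 2.28% of all tested miRNAs. At an unadjusted p under 0.05, 9 were lower, against 9.68% of all tested miRNAs. The list had a median log2 fold change of -1.81. Its most abundant members, miR-145a-5p and miR-143-3p, had -2.48 (SE 0.84) and -2.11 (SE 0.54). Of the other 7, miR-1a-3p had -2.30, miR-490-3p -2.77, miR-490-5p -1.77, miR-145a-3p -1.84, miR-143-5p -1.51, miR-133b-3p -1.47 and miR-133a-3p -1.43. Over the 6 mice the Pearson r of the list's summed CPM with the arms, on the log2 scale, was 0.96 for miR-199a-5p, 0.92 for miR-199a-3p, 0.82 for miR-214-3p and 0.75 for miR-199b-5p. With the epithelial list these values were 0.91, 0.83, 0.82 and 0.72 in the same order, and with the list of nerve and glia 0.81, 0.73, 0.54 and 0.85. With the endothelial list they were 0.57, 0.59, 0.54 and 0.26, and with the red blood cell list -0.89, -0.88, -0.81 and -0.61. No member of this or of any other list was at 0 in a mouse. The part of muscle in the values of the arms was not tested.

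Other miRNAs known to be abundant in fibroblasts gave 0 calls among 11, against 2.28% of all tested miRNAs, where 0 were called lower. Of the 11 values 9 were negative, against 452 of 878 over all tested miRNAs, and the median was -0.66. In this list miR-125b-5p, which is common in mesenchymal cells, had -0.66 (SE 0.46), miR-99a-5p -0.98 (SE 0.56), miR-100-5p -1.80 (SE 0.69) and miR-503-5p -1.40 (SE 0.57). Only miR-100-5p and miR-503-5p, 2 of 11, were lower at an unadjusted p under 0.05, against 9.68% of all tested miRNAs. The list summed to 11748 to 15276 CPM among the healthy and 6186 to 11756 CPM among the CRC mice. Its r with the arms was 0.92 for miR-199a-5p, 0.95 for miR-199a-3p, 0.84 for miR-214-3p, 0.60 for miR-199b-5p and 0.97 for miR-214-5p. For miR-214-5p the r with the smooth muscle list was 0.91, while miR-199a-5p had the higher r, 0.96, with that list. The r of miR-214-5p was 0.83 with the fibrosis list below, 0.78 with nerve and glia, 0.74 with endothelium and 0.70 with epithelium. It was -0.32 with leukocytes and -0.82 with red blood cells. The reads of the 6 arms relative to those of this list were 1.04, 1.03 and 0.641 in M1 to M3 and 1.03, 0.877 and 0.822 in M4 to M6. M3 was the lowest, and the CRC mice lay within the healthy range.

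Of 12 miRNAs linked to fibrosis and TGF-beta signalling, 0 passed the test, against 2.28% of all tested miRNAs. The median was -0.28, and 4 were lower at an unadjusted p under 0.05, against 9.68% of all tested miRNAs. These 4 were miR-145a-5p, miR-133a-3p (-1.43, SE 0.54), miR-30c-5p (-1.003, SE 0.35) and miR-101a-3p (-1.08, SE 0.39), of which the first 2 are muscle miRNAs. The pro-fibrotic miR-21a-5p had 0.23 (SE 0.29). miR-29b-3p, which represses collagen messenger RNAs, had 0.26 (SE 0.33). The other miR-29 arms of the list, miR-29a-3p and miR-29c-3p, had -0.14 (SE 0.35) and -0.47 (SE 0.41). The r of the list's summed CPM was 0.97 with miR-199a-5p, 0.87 with miR-199a-3p, 0.79 with miR-214-3p and 0.81 with miR-199b-5p. In that sum miR-145a-5p, also in the smooth muscle list, held 385965 of 629708 CPM in M1 and 630180 of 917794 CPM in M2. It held 21894 of 257706 CPM in M5 and 23806 of 292920 CPM in M6. These r are thus not independent of those with the smooth muscle list.

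The remaining cell type lists held no call either, against 2.28% of all tested miRNAs. The 9 epithelial miRNAs had a median of -0.49, with -0.18 (SE 0.44) for miR-192-5p and -0.67 (SE 0.33) for miR-200a-3p, and summed to 112500 to 219934 CPM among the healthy and 88337 to 166420 CPM among the CRC mice. The 6 leukocyte miRNAs had a median of 0.02, with 0.16 (SE 0.91) for miR-142a-3p and -0.01 (SE 0.46) for miR-223-3p. Their sum was highest in the healthy M3, at 16884 CPM against 4243 to 9366 CPM in the other mice. Its r was -0.63 with miR-199a-5p, -0.41 with miR-199a-3p, -0.39 with miR-214-3p and -0.87 with miR-199b-5p. M3 was thus high in leukocyte miRNAs and low in miR-199b-5p, at 535 CPM. M4 to M6 had similar miR-199b-5p values of 461, 736 and 560 CPM. Their leukocyte sums were lower than that of M3, at 9366, 7533 and 8967 CPM.

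The 2 endothelial arms, miR-126a-3p and miR-126a-5p, had -0.19 (SE 0.34) and 0.58 (SE 0.45), and summed to 11003 to 13524 CPM among the healthy and 9377 to 12671 CPM among the CRC mice. Of 4 red blood cell miRNAs, miR-451a (1.45, SE 0.53) and miR-144-5p (1.55, SE 0.52) were higher at an unadjusted p under 0.05, against 13.6% of all tested miRNAs, while miR-144-3p had 1.65 (SE 0.87), and the list summed to 294 to 576 CPM and 486 to 1892 CPM. Of 5 miRNAs of nerve and glia, miR-124-3p (-2.34, SE 0.60) and miR-338-3p (-1.01, SE 0.45) were lower at an unadjusted p under 0.05, against 9.68% of all tested miRNAs, while miR-9-5p had -0.67 (SE 0.39), and the list summed to 329 to 511 CPM and 172 to 209 CPM. The part of any of these cells in the values of the arms was not tested.

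The profiles most like those of the arms, were sought among 273 other miRNAs with a mean of at least 50 CPM. Nearest to miR-199a-3p were miR-221-3p (Pearson r 0.99), miR-379-5p, miR-455-3p, miR-484 and miR-24-3p (0.98 each). Nearest to miR-214-3p were let-7d-5p (0.99), miR-182-5p (0.98), miR-484, miR-652-3p (0.97 each) and miR-674-5p (0.96). Nearest to miR-199a-5p were miR-541-5p, miR-23a-3p, miR-3074-5p, miR-24-3p and miR-1839-3p (0.99 each), of which miR-3074-5p and miR-24-3p hold 20 reverse-complementary bases in a row. Nearest to miR-199b-5p were miR-299a-5p (0.998), miR-141-3p (0.99), miR-322-3p (0.98), miR-326-3p (0.97) and miR-376c-3p (0.97). As an example, miR-299a-5p was at 149, 193 and 36.6 CPM in M1 to M3 and at 27.5, 44.6 and 34.4 CPM in M4 to M6, the order of miR-199b-5p except that M3 and M6 changed places. All r are over 6 mice with shared libraries and scaling factors, and describe these profiles only.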

How the data were processed

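Small RNA libraries from colorectum were sequenced on an Ion Proton, per the labels' protocols, and aligned with BWA to mm10 (GRCm38), according to the submitters' processing notes. The deposited values are raw counts, as whole numbers, of 1915 mature miRNAs in 6 columns, 1 per mouse. The sources used here do not give the rule for reads that match several hairpins or the opposite strand. The test over all entries was that of edgeR 4.0.16 (R 4.3.3, TMM, filterByExpr by group, 878 miRNAs kept, robust quasi-likelihood fit, two-sided, Benjamini-Hochberg adjustment over all 878). An SE is the log2 fold change divided by the square root of F. Arm balance was tested with limma 3.58.1 (trend, robust) on log2 ratios with 0.5 added, for hairpins with a mean of at least 10 counts in both arms. Nearest profiles used log2(CPM + 0.5). Fits were also run on simulated counts with known changes, drawn independently for each mouse and so without the close pairs of profiles. Their outcome is not given here and is not used as support. Alternatives were RLE, upper quartile and total scaling, no filter, a 50 CPM filter, DESeq2 1.42.0, limma-voom, non-robust fits, leaving out each mouse or M3 with M4, neighbouring profiles as blocks, summing identical sequences and removing a GC trend by loess (span 0.75). Named were all members, the 2 most abundant members of each fixed list, list members with an unadjusted p under 0.05 and the 5 nearest profiles of each of 4 arms. Members were picked by name, and members, lists and tests were chosen with earlier results of these data known. After the counts had been seen, 3 of the 5 ratios were added and the table of likeness between whole profiles was made. miR-29a-3p, miR-29b-3p and miR-29c-3p were then also named outside the rule.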

Additional observations from a re-analysis of the deposited data

How the results depend on the processing

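The count of all called miRNAs was 20 of 878 tested with all mice. It was 43 of 878 with total counts only, 64 of 1914 without a filter, 111 of 878 with DESeq2 and 576 of 1082 without M3 and M4. It was 0 with a 50 CPM filter, limma-voom or the GC trend removed. With 1 mouse left out it was 237 of 1188 (M4 dropped), 63 of 1068 (M3 dropped), 4 of 1106 (M2 dropped) and 0 when any other mouse was dropped. Over 18 alternatives the 5 arms other than miR-199b-5p passed only without M3 and M4, where the log2 fold changes were -1.40 (miR-199a-5p), -1.75 (miR-199a-3p), -1.76 (miR-199b-3p), -1.26 (miR-214-3p) and -1.28 (miR-214-5p). miR-199b-5p passed there (-2.65), without a filter (-2.09), in DESeq2 (-2.03) and without M3, stayed negative in all 18, and gave -2.60 (M3 dropped) to -1.26 (M2 dropped) with 1 mouse left out. Directions reversed with total counts only, to 0.16 (miR-199a-5p), 0.043 (miR-199a-3p), 0.047 (miR-199b-3p), 0.43 (miR-214-3p) and 0.11 (miR-214-5p), and with neighbouring profiles as blocks, to 0.45, 0.68, 0.70, 0.94 and 0.12 in the same order. With 1 mouse left out miR-214-3p ran from -0.70 to 0.043, and the other 4 of these arms stayed negative. The summed share of reads differed by 0.049 percentage points, by -0.44 on TMM-scaled sizes and by -0.051 to 0.15 with 1 mouse left out. miR-199-3p against the summed miR-199-5p differed by -0.078 to 0.53. The other 4 ratios and the arm balances kept their direction with each mouse left out, and none passed a test. The causes were not tested. The 2 labelled libraries of M1 could not be compared. Every arm had at least 247 counts in every mouse, so counting error was small beside the spread between mice; 3 mice a group limit the precision.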

Other observations

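The table holds 12 mature sequences that are listed under more than 1 name. For the 4 pairs of entries with at least 1000 counts in all, miR-199a-3p with miR-199b-3p among them, the share of counts of the entry with more hairpins lay within 3 percentage points of its share of hairpins. It was 91.4% against 91.667% for miR-669a-3p over miR-669o-3p, 86.7% against 85.714% for miR-669a-5p over miR-669p-5p and 50% against 50% for let-7a-1-3p over let-7c-2-3p. These pairs were looked at after the even split of miR-199-3p had been seen.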
